A study of Mus musculus with 4 samples.

Results

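Ly6g and Il1rn positive colonocytes are absorptive epithelial cells of the mouse colon that carry transcripts of the surface protein gene Ly6g, of the interleukin 1 receptor antagonist gene Il1rn, or of both. They were selected by raw counts of unique molecular identifiers (UMIs, each standing for 1 captured transcript), and 4176 of 44356 cells qualified. A cell needed 500 or more UMIs from 250 or more genes, with no more than 25% of them mitochondrial, at least 2 Epcam UMIs, no Ptprc UMI and at least 3 UMIs of Ly6g and Il1rn together. Cells were left out when they had 3 or more Ifit1 and Ifit2 UMIs, 2 or more Lgr5 and Ascl2 UMIs or 4 or more Mki67, Top2a, Ube2c and Birc5 UMIs. Cells with 2% or more of their UMIs from the goblet genes Muc2, Fcgbp, Clca1, Zg16, Tff3, Spink4 and Agr2 were also left out. The 9170 cells that met every condition except the one on Ly6g and Il1rn served as the comparison and are called other absorptive cells. The rule thus used measured values, and the levels of its genes are descriptions of the choice.

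The series profiled single cells of the mid-colon of 7-week-old specific pathogen free (SPF) mice with a droplet assay that reads transcript 3' ends. Control animals had clean drinking water, and the others had 3% dextran sulfate sodium (DSS) in their water for 2 days, a polysaccharide that damages colonic epithelium. Each group has 2 libraries, and strain, genotype and sex are not given in the labels. The labels number the libraries and do not say that they came from separate animals, so the spread behind the p-values is that between libraries and may be technical in origin. Values given in fours below follow the order control 1, control 2, DSS 1 and DSS 2.

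Absorptive colonocytes arise from stem cells at the crypt base and mature as they move to the luminal surface, where they take up water and salt and are then shed. Interleukin 1 signals tissue damage, and the protein made from Il1rn occupies its receptor without starting the signal. Ly6g encodes a small lipid-anchored surface protein best known as a label of mouse neutrophils. The markers proposed with this class also include Areg, an epidermal growth factor receptor ligand made during epithelial repair, Reg3b, an antibacterial lectin induced in stressed gut epithelium, and Anxa8, a calcium-dependent membrane-binding annexin.

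Promoter sequences are shown for the genes that define the class and for the proposed markers with a match to a searched motif. Each window runs from 250 bases before to 50 bases after the annotated start, taken from RefSeq on GRCm38.p6 and written 5′ to 3′. Capitals mark matches to 4 motifs searched on both strands: AP-1 (TGANTCA), STAT (TTCNNNGAA), NF-kB (GGGNNNTTCC) and TATAAA.
Ly6g, chr15:75155011-75155310, + strand: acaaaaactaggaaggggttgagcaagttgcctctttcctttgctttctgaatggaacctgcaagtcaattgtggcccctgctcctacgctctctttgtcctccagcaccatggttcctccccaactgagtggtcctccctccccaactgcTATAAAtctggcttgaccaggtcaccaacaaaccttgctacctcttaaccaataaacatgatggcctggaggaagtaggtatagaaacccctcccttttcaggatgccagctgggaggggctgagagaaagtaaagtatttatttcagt
Il1rn, chr2:24336610-24336909, + strand: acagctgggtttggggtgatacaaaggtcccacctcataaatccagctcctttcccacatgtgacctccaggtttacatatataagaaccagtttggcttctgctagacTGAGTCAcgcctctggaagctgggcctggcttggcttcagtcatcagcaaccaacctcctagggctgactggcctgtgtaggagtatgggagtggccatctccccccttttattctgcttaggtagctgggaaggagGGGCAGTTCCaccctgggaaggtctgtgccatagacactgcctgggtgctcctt
Areg, chr5:91139349-91139648, + strand: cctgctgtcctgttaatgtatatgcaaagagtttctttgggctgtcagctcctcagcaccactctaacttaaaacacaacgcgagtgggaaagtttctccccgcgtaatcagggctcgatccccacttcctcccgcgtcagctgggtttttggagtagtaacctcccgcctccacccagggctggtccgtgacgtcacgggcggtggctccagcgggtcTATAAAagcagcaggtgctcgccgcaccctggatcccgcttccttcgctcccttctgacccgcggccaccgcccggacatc
Reg3b, chr6:78370635-78370934, + strand: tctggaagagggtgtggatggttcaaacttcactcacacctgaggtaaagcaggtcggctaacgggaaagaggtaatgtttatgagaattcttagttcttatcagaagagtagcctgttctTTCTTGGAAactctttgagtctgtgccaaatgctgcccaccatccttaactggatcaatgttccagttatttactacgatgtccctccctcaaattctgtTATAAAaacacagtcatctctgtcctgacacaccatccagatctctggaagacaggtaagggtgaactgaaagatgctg
The Ly6g and Areg windows hold 1 TATAAA match each. The Ly6g window is the first of 2 RefSeq entries for the gene, and the other entry also holds 1 TATAAA match. The Il1rn window is the first of 3 RefSeq entries for the gene and holds an AP-1 match, TGAGTCA, and an NF-kB match, GGGCAGTTCC. Reg3b has a STAT match, TTCTTGGAA, and a TATAAA match. The Anxa8 window held none of the 4 motifs. The Il1rn entries not shown hold no AP-1 match and a different NF-kB match, and the third also holds a TATAAA match on the - strand. Over all 32851 RefSeq promoter windows, 7.81% held AP-1, 8.298% STAT, 5.56% NF-kB and 13.6% TATAAA. A match says that these letters occur in the window and not that a factor binds there. The genes lie on GRCm38 (GENCODE M21) at these places: Ly6g (ENSMUSG00000022582, chr15:75155240-75159126, + strand), Il1rn (ENSMUSG00000026981, chr2:24336853-24351494, + strand), Areg (ENSMUSG00000029378, chr5:91139599-91148432, + strand), Anxa8 (ENSMUSG00000021950, chr14:34085981-34100571, + strand) and Reg3b (ENSMUSG00000071356, chr6:78370657-78373466, + strand).

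The files held 10966, 13014, 12778 and 13093 barcodes and between 101051573 and 109472082 UMIs per library. The class numbered 380, 1188, 423 and 2185 cells, against 3083, 3867, 945 and 1275 other absorptive cells. Pairs of libraries shared between 28 and 41 barcodes, and at most 2 of these belonged to the class in both. Its cells were deep, with median totals of 14395.5, 13102, 22830 and 17097 UMIs against 9968, 7447, 16042 and 7437 in other absorptive cells. A rule that asks for 3 UMIs is met more readily by a deeper cell, so depth differed between the classes compared below. Scrublet marked 3.16, 6.82, 4.96 and 9.06 percent of the class as doublets, and they were kept.

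The class carried absorptive epithelial markers, and transcripts of neutrophils were nearly missing despite Ly6g. The rule asked for Epcam UMIs and no Ptprc UMI, and Epcam is itself among the epithelial markers. The marker levels are thus a description and no test of the label. All 15 absorptive epithelial markers were detected in the class in each library, and together they reached 38831, 45379, 35572 and 48653.5 counts per 1000000 UMIs (CPM), against 28789.9, 38157, 13629 and 22851 CPM in other absorptive cells. The 16 neutrophil markers summed to 0.656, 5.402, 7.13 and 3.92 CPM in the class, and 13, 10, 10 and 5 of the 16 were at 0. The defining neutrophil genes Csf3r, Cxcr2 and Retnlg, for example, were at 0, 0.115, 0 and 0.205 CPM, 0, 0.115, 0.102 and 0.128 CPM and 0, 0, 0 and 0.0512 CPM. As a measure of free RNA, 0.685%, 2.12%, 1.54% and 3.88% of fibroblasts, which should lack Ly6g, had a Ly6g UMI at median depths of 3627, 4669, 5376 and 3895 UMIs, against 63.2%, 70.5%, 66.9% and 79.4% of the class. An Il1rn UMI was found in 0.548%, 3.51%, 2.26% and 7.82% of fibroblasts and 2.05%, 6.78%, 8.94% and 14.7% of B and plasma cells, against 78.2%, 82.9%, 87.00% and 93.8% of the class. For Areg these shares were 3.699%, 18.9%, 7.24% and 12.9% of fibroblasts against 87.9%, 97.8%, 95.3% and 97.5% of the class. These shares thus differed between genes, libraries and cell types. Il1rn was at 10.3, 55.8, 48.5 and 36.7 CPM in B and plasma cells, against 1.44, 7.45, 5.04 and 22.9 CPM in fibroblasts. Whether the Il1rn UMIs of B and plasma cells are free RNA was not tested. The Ly6g and Il1rn shares of the class follow from the rule, and its cells were deeper, so they are descriptions. At 2000 UMIs per cell, a Ly6g UMI was found in 0.33%, 1.28%, 0.642% and 2.2% of fibroblasts. In other absorptive cells, which the rule limits to fewer than 3 Ly6g and Il1rn UMIs, it was 4.54%, 5.76%, 1.93% and 9.27%.

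Markers of plasma cells, fibroblasts and enteroendocrine cells were lower in the class than in its comparison cells, and squamous markers were higher. The 10 B and plasma cell markers summed to 237, 3617, 10606 and 2373 CPM in the class and 7886, 14236, 252205 and 41932.5 CPM in other absorptive cells, so DSS 1 stood apart. The 10 fibroblast markers summed to 207, 919.8, 549 and 992 CPM and 1059, 2633, 1613 and 4559 CPM, and the 9 enteroendocrine markers to 23.4, 41.7, 20.9 and 317 CPM and 1386, 830.4, 789 and 4551 CPM. Comparisons with other absorptive cells are therefore also given for cells with few foreign markers, namely under 1% plasma cell UMIs, under 1% fibroblast UMIs, fewer than 5 enteroendocrine and fewer than 3 tuft cell UMIs. The 12 squamous and anal transition markers were higher in the class in each library. They summed to 109.8, 422.4, 65.99 and 318.6 CPM, against 51.49, 348.99, 20.81 and 109.4 CPM in other absorptive cells. The 15 macrophage and monocyte markers summed to 415.9, 567.1, 479.96 and 340.5 CPM against 367.02, 552.8, 357.1 and 341.4 CPM. They were lower in the class in DSS 2 alone. The limits on foreign markers did not cover either list.

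Both DSS libraries held more of the class among absorptive cells than both control libraries, and DSS 2 held by far the most. The share of absorptive cells was 10.97% (95% exact binomial interval 9.95 to 12.1), 23.5% (95% exact binomial interval 22.3 to 24.7), 30.9% (95% exact binomial interval 28.5 to 33.4) and 63.2% (95% exact binomial interval 61.5 to 64.8). Exact intervals here cover counting error only, and no test was made because the rule chose these cells. The ranges of the groups did not overlap, but control 2 lay nearer to DSS 1 than to control 1. These shares count comparison cells with many foreign markers. With few foreign markers there were 379, 1134, 391 and 2070 cells of the class against 2838, 3307, 400 and 908 other absorptive cells. By those counts the groups did not overlap either, and control 2 lay nearer to control 1 than to DSS 1. The share of all filtered cells was 4.08%, 11.1%, 3.51% and 17.8%, and there control 2 lay above DSS 1. Absorptive cells themselves numbered 3463, 5055, 1368 and 3460 of 9321, 10748, 12037 and 12250 filtered cells.

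The separation of the groups was lost when cells were compared at a common depth. When each absorptive cell was thinned to 5000 UMIs, the share was 3.63%, 12.8%, 8.58% and 49.6% of the 2614, 4127, 1306 and 2795 cells deep enough, and DSS 1 fell between the control libraries. At 2000 UMIs it was 0.824%, 2.86%, 2.06% and 20.9% of 3396, 4935, 1356 and 3358 cells, with the same order. With at most 15% mitochondrial UMIs it was 12.4%, 29.8%, 28.9% and 66.3%, and control 2 again exceeded DSS 1. A requirement of 5 UMIs in place of 3 gave 3.93%, 14.1%, 19.96% and 53.6%, and 2 UMIs gave 19.6%, 32.2%, 39.5% and 70.6%, both without overlap. DSS 2 was highest at each of these settings. None of them left out cells with many foreign markers, and thinning was not repeated on cells with few. The label's word injury is thus only partly met, since 380 and 1188 such cells were present in the libraries of mice that drank water.

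**Figure D1:**
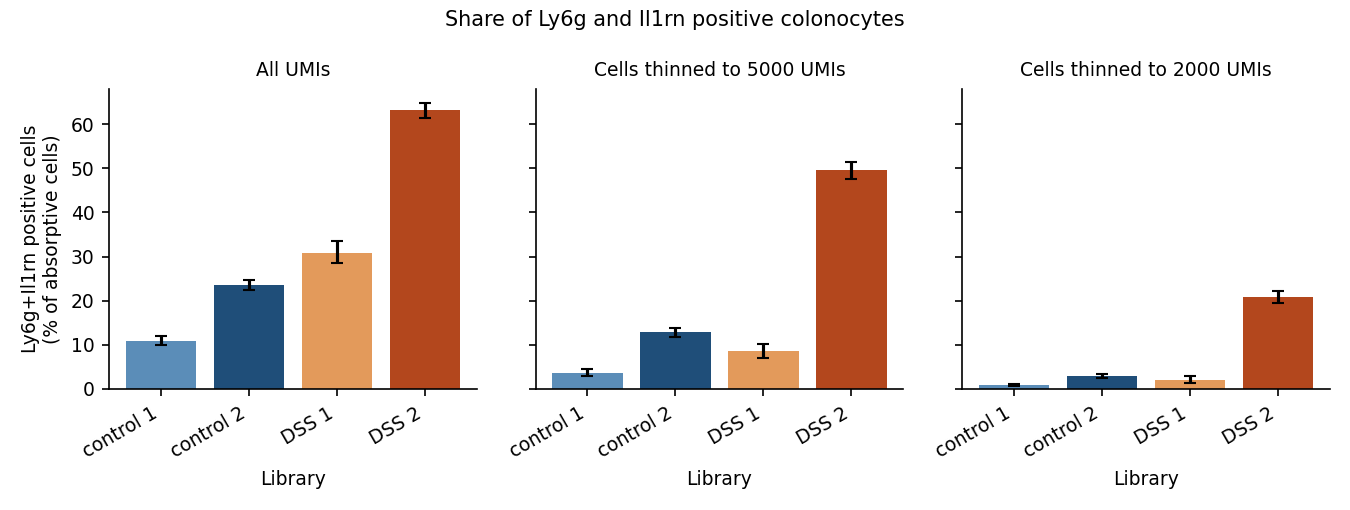
Ly6g and Il1rn positive cells as a percent of absorptive cells (y axis) in each library (x axis), with all UMIs, after thinning to 5000 UMIs and after thinning to 2000 UMIs per cell. Bars are single libraries, and error bars are 95% exact binomial intervals. With all UMIs both DSS libraries exceed both control libraries, and after thinning DSS 1 lies between the control libraries while DSS 2 stays highest.

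Within the class, cells that carried both transcripts made up 41.3%, 53.5%, 53.9% and 73.2% of the class. Cells with Ly6g alone made up 21.8%, 17.1%, 13.00% and 6.22%, and cells with Il1rn alone 36.8%, 29.5%, 33.1% and 20.6%. The shares with both transcripts overlapped between control 2 and DSS 1, and DSS 2 was highest. The median sum of both genes was 4, 5, 5 and 12 UMIs per cell, and 4.21%, 22.3%, 20.6% and 58.9% of the class had 10 or more.

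Cells with 1 of the 2 transcripts differed in the surface marker Aqp8, a water channel. Aqp8 reached 1856, 2154, 1094 and 1571 CPM in the cells with Ly6g alone and 120.4, 716, 102 and 168 CPM in those with Il1rn alone, so it was higher beside Ly6g in every library. Sult1c2, a sulfotransferase gene of the middle crypt, ran the other way, at 4.27, 1.47, 2.83 and 5.35 CPM beside Ly6g and 66.2, 14.1, 36.1 and 33.2 CPM beside Il1rn. Krt20, a keratin of mature colonocytes, was at 1556, 2323, 1171 and 1359.8 CPM and 515, 1907, 602 and 919 CPM. The cells with Il1rn alone were deeper, with medians of 16918, 14400.5, 25652.5 and 16173.5 UMIs against 7010, 9129, 10907 and 6606.5. Over the whole class, 47.6%, 78.5%, 41.4% and 49.6% of cells had at least 3 Aqp8 UMIs, the cut used below for surface colonocytes. These subsets were split by genes of the rule and are described without a test.

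The proposed markers Areg and Anxa8 were higher in the class than in all other absorptive cells in every library, and Reg3b was not. Areg reached 734, 1425, 1076 and 1440.1 CPM in the class and 368, 789, 369 and 470.5 CPM in other absorptive cells. Anxa8 reached 76.6, 100.1, 74.7 and 131 CPM and 42.8, 55.4, 14.97 and 20.2 CPM. Both were higher in the class in 4 of 4 libraries. Against surface colonocytes with at least 3 UMIs of the water channel gene Aqp8 the contrast was smaller, with Areg at 549.5, 905, 896 and 853 CPM and Anxa8 at 113, 75.3, 40.1 and 46.2 CPM in those cells. In control 1 Anxa8 was thus lower in the class than in these surface cells. At 2000 UMIs per cell, 14.5%, 17.97%, 11.3% and 18.8% of the class had an Anxa8 UMI, and 19.6%, 12.9%, 4.46% and 6.38% of the surface cells. For Areg these shares were 59.7%, 83.3%, 71.6% and 84.8% and 45.6%, 67.9%, 62.5% and 67.7%. Reg3b reached 23.6, 20.2, 332 and 656 CPM in the class and 7.27, 51.9, 144 and 902 CPM outside it, and was lower in the class in control 2 and DSS 2. The rule's own genes were at 135, 199, 149 and 433 CPM against 14.5, 23.8, 7.71 and 25.03 CPM for Ly6g, and 172, 303, 168 and 542 CPM against 24.3, 27.2, 19.5 and 45.3 CPM for Il1rn.

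Areg and Anxa8 followed the number of Ly6g and Il1rn UMIs, below the threshold of 3 as well as above it. From cells with 0 such UMIs to cells with 10 or more, Areg went from 300.5 to 993 CPM in control 1, from 696 to 1775 in control 2, from 171 to 1243 in DSS 1 and from 319 to 1600.1 in DSS 2. Anxa8 went from 37.3 to 156 CPM, from 41.3 to 119, from 6.14 to 106 and from 13.4 to 159 in the same order. The top bin of control 1 held 16 cells. Just inside the threshold, at 3 UMIs, Areg was at 609.7, 1151, 958 and 846 CPM, and just outside, at 2 UMIs, at 581, 975, 798 and 705 CPM. For Anxa8 the corresponding levels were 68.8, 82.8, 44.9 and 40.7 CPM and 62.7, 85.7, 29.3 and 32.2 CPM, so control 2 was lower inside. For Krt20 they were 887, 2146, 588 and 749 CPM and 882, 2182.5, 430.4 and 647 CPM. Car1 differed more in the DSS libraries, at 1597, 3344, 1534 and 3267 CPM inside and 1572, 3245, 845 and 1997 CPM outside. The 2 sides held 156, 268, 79 and 179 and 300, 441, 118 and 258 cells. Depth rose along this scale as well. From 0 such UMIs to 10 or more, median totals went from 8837 to 22839.5, 6912 to 16004, 14953.5 to 25409 and 7155 to 19401 UMIs. The bins were not matched for depth or limited to cells with few foreign markers. By Areg and Anxa8 in these unmatched bins, the class is a range of a continuous readout. At the threshold lay 41.1%, 22.6%, 18.7% and 8.19% of its cells.

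**Figure D2:**
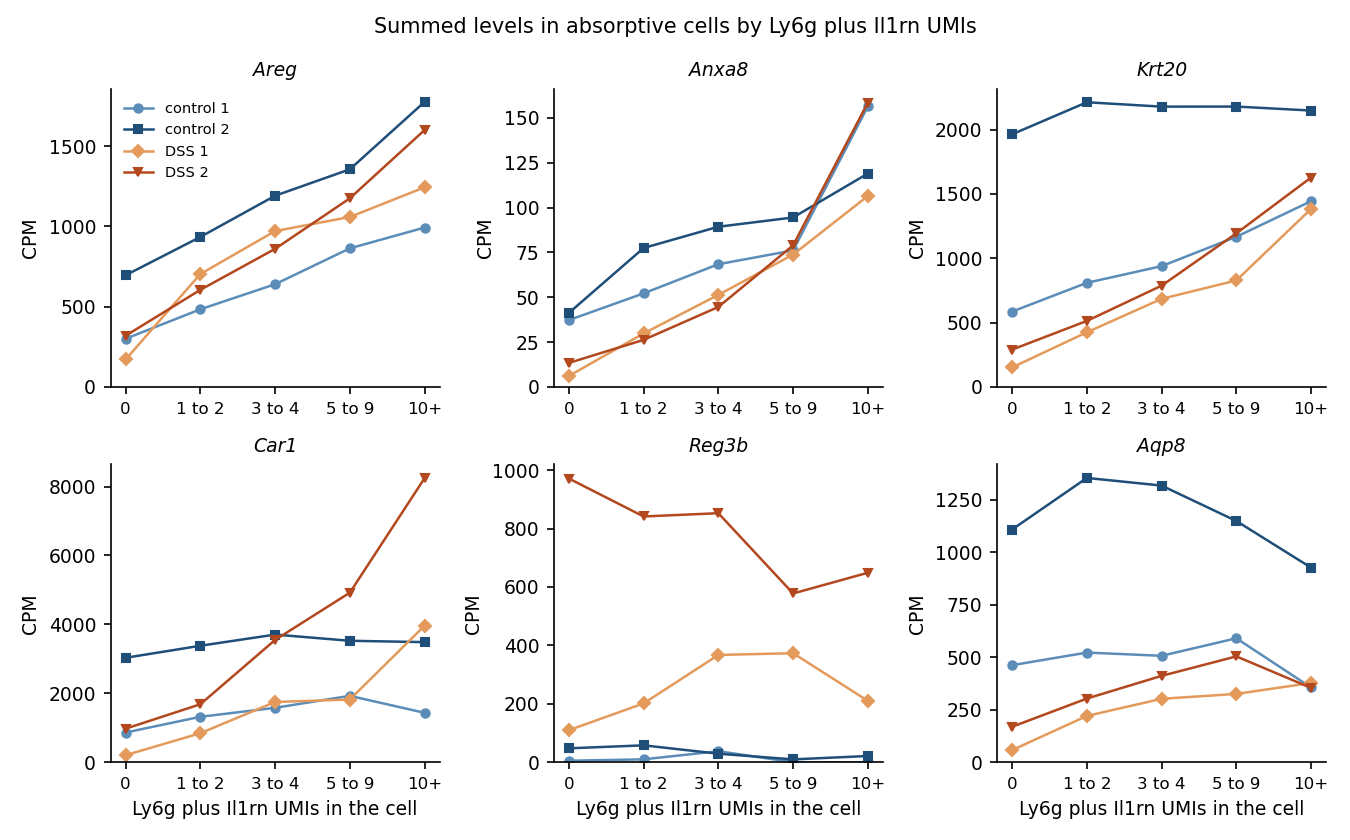
Level in CPM (y axis) of 6 genes in absorptive cells grouped by their Ly6g plus Il1rn UMIs (x axis, classes of 0 to 10 or more), with 1 line per library. Areg and Anxa8 are higher in the top class than in the class at 0 in each library, while Reg3b is separated by treatment and does not follow the UMI classes.

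Against other absorptive cells of the same library, the class had higher levels of transporters, keratins, junction genes and metabolic genes of the colonocyte, and lower levels of crypt genes. Outside the genes of the rule and the proposed markers, and among genes of at least 20 CPM that went the same way in each library, Atp12a, the colonic proton-potassium pump, had the highest fold change. It reached 14.8, 106, 178 and 108 CPM in the class and 6.19, 42.7, 16.96 and 41.7 CPM in other absorptive cells and was higher in each library, with a log2 fold change of 1.99 (SE 0.27, edgeR adjusted p = 0.00108). Ly6a, a Ly6 family surface gene known from regenerating epithelium, reached 417, 427, 1181 and 1826 CPM against 191, 198, 413 and 682 CPM, with a log2 fold change of 1.44 (SE 0.16, edgeR adjusted p = 0.000433). Car1, a carbonic anhydrase of the colonocyte, reached 1684, 3575, 2318 and 7104 CPM against 1033, 3168, 445 and 1351 CPM, with a log2 fold change of 1.56 (SE 0.39, edgeR adjusted p = 0.0123). These tests used edgeR's quasi-likelihood test with Benjamini-Hochberg adjustment and library as a block, n = 4 libraries.

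In all, 3269 of 14271 genes were higher in the class (22.9%) and 3113 lower (21.8%), with a median log2 fold change of 0.0043. Without DSS 2 the counts were 1466 and 2085. Among cells with few foreign markers they were 1400 (10.6%) and 1716 (13%) of 13207. Without the library block 3 genes were higher and 6 lower.

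Further genes with large increases were S100a14, a calcium-binding protein (144, 168, 253 and 374 CPM against 70.3, 76.6, 55.5 and 96.4 CPM), and Tnip3, an inhibitor of NF-kB signalling (59.02, 141, 114 and 215 CPM against 32.1, 65.4, 42.3 and 70.9 CPM). Hif1a, the hypoxia-regulated transcription factor, reached 165, 467, 210.3 and 457 CPM against 90.6, 235, 64.9 and 171 CPM. Each was higher in the class in 4 of 4 libraries, and the log2 fold changes were 1.73, 1.41 and 1.39 (edgeR adjusted p = 0.000596, 0.000612 and 0.000523). Slc37a2, a sugar phosphate transporter (1.83), the transglutaminase Tgm3 (1.55) and Plac8 (1.44) were also higher. The most strongly lower genes were immunoglobulin, hemoglobin and gut hormone genes such as Jchain (-4.28), Hba-a1 (-4.50) and Pyy (-5.49), which belong to other cells. Where cells with few foreign markers were compared, the lower genes included Cldn2, a pore-forming claudin of the crypt (-2.20), Rnf186, a ubiquitin ligase of colonic epithelium (-2.18), and Slc12a2, the crypt sodium-potassium-chloride cotransporter (-1.98). Atp12a (1.74), Ly6a (1.40), Car1 (1.25) and Hif1a (1.16) passed the threshold there too.

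The gene lists are read against 22.9% higher and 21.8% lower over all genes and a median of 0.0043. List counts with few foreign markers, here and in the next paragraphs, are read against 10.6% higher and 13% lower over all genes. Of the surface transport list, 20 of 28 tested genes were higher and 2 lower (median 0.84), and 13 higher and 3 lower with few foreign markers. Of the brush border and differentiation list, 22 of 28 tested genes were higher and 1 lower (median 0.83), among them the hormone gene Guca2a (1.11), the galectin Lgals3 (1.22) and Krt20 (1.25). Of the keratin list, 5 of 9 tested genes were higher and 0 lower (median 0.86), including Krt8 (1.08) and Krt19 (1.08). Of the junction list, 21 of 24 tested genes were higher and 2 lower (median 0.74), including Cldn7 (0.74), Cldn3 (0.88) and Cdh1, the cadherin of epithelial contacts (0.79). With few foreign markers 12 of 28 brush border, 5 of 8 keratin and 14 of 24 junction genes were higher.

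Metabolic lists had the same direction. Each of the 22 cholesterol synthesis genes tested was higher in the class (median 0.66), with Hmgcs1 at 0.97 and Msmo1 at 1.04. With few foreign markers 15 of 22 were higher and 0 lower. Of the hypoxia and glycolysis list, 19 of 25 tested genes were higher and 0 lower (median 0.70), including Gapdh (0.82), Ldha (0.86) and the hexokinase Hk2 (0.83), and 16 higher and 1 lower with few foreign markers. Of the lipid oxidation and ketogenesis list, 16 of 21 tested genes were higher and 0 lower (median 0.46), and 7 higher and 2 lower with few foreign markers.

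Repair and signalling genes were mixed. Of the regenerative and fetal-like list, 11 of 20 tested genes were higher and 3 lower (median 0.77), including S100a6 (1.09), Emp1 (1.36) and Ly6a, and 10 higher and 1 lower with few foreign markers. The list excluded the proposed markers Areg and Anxa8. Of the other epidermal growth factor ligands, receptors and regulators, 7 of 10 tested genes were higher and 0 lower (median 0.56), among them the ligand Hbegf (0.82) and the feedback inhibitor Errfi1 (0.83). With few foreign markers 4 of 10 were higher and 0 lower. Against the surface cells with at least 3 Aqp8 UMIs 0 of 10 were higher and 3 lower, namely the receptors Egfr, Erbb2 and Erbb3 (list median -0.24). In the interleukin 1 family, 4 of 12 tested genes were higher and 3 lower (median -0.12). The higher genes were the cytokine Il18 (1.09), its protease Casp1 (0.73), the pore former Gsdmd (0.96) and the inhibitory receptor Sigirr (0.34), and the lower genes were Il33, Il1r1 and Il18r1. With few foreign markers 3 of 11 were higher (Il18, Casp1 and Gsdmd) and 1 lower (Il1r1). Sigirr and Il33 lost their calls, and Il18r1 did not pass the filter on low counts.

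Of the NF-kB target and chemokine list, 8 of 26 tested genes were higher and 5 lower (median 0.28), and of the interferon-gamma and antigen presentation list, 1 of 29 tested genes were higher and 6 lower (median -0.32), with Cd74 at -1.57. With few foreign markers 6 of 26 genes of the former were higher and 0 lower, and 0 of 28 genes of the latter were higher and 1 lower. Of the stem cell and Wnt target list, 1 of 15 tested genes were higher and 9 lower (median -1.18), and 0 higher and 10 lower with few foreign markers. Cd44, a crypt adhesion receptor, was at -1.86 and Lrig1, a stem cell regulator, at -1.18. In the Ly6 and uPAR family, Ly6c1 was at 0.74 (SE 0.28, edgeR adjusted p = 0.0571) against all other absorptive cells and at 1.75 (SE 0.33, edgeR adjusted p = 0.00726) with few foreign markers. Ly6d changed sign, from -1.71 (SE 0.75, edgeR adjusted p = 0.0942) to 2.26 (SE 0.50, edgeR adjusted p = 0.0136), and the other absorptive cells of DSS 1, which carried the plasma cell markers, held 252 CPM of Ly6d. Reads of the Ly6 genes on chromosome 15, and of other close relatives named here (the metallothioneins, the Gsdmc genes, Reg3b and Reg3g, Clca4a and Clca4b), may be divided uncertainly between them.

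Surface colonocytes with at least 3 Aqp8 UMIs were the nearest comparison class, with 1207, 2438, 112 and 286 cells. Against them 1605 of 12316 genes were higher in the class (13%) and 1713 lower (13.9%). The counts fell to 2011 in both directions together without control 1 and 1561 without DSS 1. Among the higher genes were the water channel gene Aqp4 (log2 fold change 2.35, SE 0.23, edgeR adjusted p = 0.000534), the gasdermin gene Gsdmc4 (log2 fold change 1.99, SE 0.19, edgeR adjusted p = 0.000534) and Sult1c2 (log2 fold change 1.55, SE 0.25, edgeR adjusted p = 0.00312). Of the brush border list, 2 of 28 genes were higher and 9 lower, and of the surface transport list, 5 of 28 genes were higher and 7 lower, with Aqp8, on which the comparison cells were picked, among the lower. Of the glycolysis and hypoxia list, 1 of 25 genes were higher and 8 lower, and of the AP-1 and immediate early list, 0 of 22 genes were higher and 6 lower. Of the antibacterial and acute phase list, 1 of 18 genes were higher and 9 lower. The class holds cells with few Aqp8 UMIs while its comparison did not, so the same cut was then applied to both sides. Aqp4 was then at 1.45, Gsdmc4 at 1.35, Sult1c2 at 0.19 (edgeR adjusted p = 0.786, call lost) and Ly6a at 1.00, with 742 of 11252 genes higher (6.59%) and 645 lower (5.73%).

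The closest match kept cells of both sides with at least 3 Aqp8 UMIs and with UMI totals inside the interquartile range of the class in that library. It left 77, 458, 69 and 512 cells of the class against 232, 822, 36 and 48, and 27 of 8779 genes were higher (0.308%) and 72 lower (0.82%). Ly6g and Il1rn, which chose the cells, were among the 27 higher genes. The other 25 were also higher against all other absorptive cells and with few foreign markers. Of the 72 lower genes 66 and 25 were lower there. The matched cells are a subset of all absorptive cells and overlap with those of few foreign markers, so the agreement is not independent. Most of the lower genes with large changes were immunoglobulin or connective tissue genes, such as Igkc (-1.96) and Dcn (-1.40).

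Outside the rule's genes, Atp12a had the highest fold change of the called genes in this match too, at 21.9, 177, 485 and 230.2 CPM in the class and 4.11, 62.98, 65.5 and 80.1 CPM in the matched surface cells. It was higher in each library, with a log2 fold change of 1.97 (SE 0.20, edgeR adjusted p = 0.000519). Ly6a was at 626, 453, 1529 and 1972 CPM and 323, 226, 919.9 and 984 CPM, with a log2 fold change of 0.97 (SE 0.11, edgeR adjusted p = 0.000999). Tnip3 reached 67.8, 128, 149 and 240.2 CPM against 38.4, 79.6, 98.3 and 97.2 CPM, with a log2 fold change of 0.89 (SE 0.14, edgeR adjusted p = 0.00698). All 3 genes were thus higher in the class than in surface cells of like depth in each of the 4 libraries. This rested on matching both sides: against all surface colonocytes, without a cut on the class, the log2 fold changes were 0.01 for Atp12a, 0.72 for Ly6a and 0.12 for Tnip3 (edgeR adjusted p = 0.984, 0.0119 and 0.683), and with the Aqp8 cut on both sides alone they were 1.05, 1.00 and 0.49. Further higher genes were the calpain Capn13 (1.61), S100a14 (0.93), the troponin gene Tnni1 (0.84), Tgm3 (0.84), the enolase Eno3 (0.80), Hif1a (0.78) and Fdft1, an enzyme of sterol synthesis (0.65). Against all surface colonocytes Tgm3 was at -0.106 and Eno3 at -0.111 (edgeR adjusted p = 0.779 and 0.762), so their direction also rested on the matching.

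Some epithelial genes of low level were lower in the class at this match as well. The matched cells summed to 1003280, 5833762, 1415156 and 8375376 UMIs in the class and 2919997, 9781134, 732686 and 699343 outside it. Levels of a few CPM thus rest on few UMIs. Rnf186 was at 1.99, 0.857, 0 and 7.52 CPM in the class and 9.59, 3.48, 8.19 and 61.5 CPM in matched surface cells, with a log2 fold change of -2.74 (SE 0.37, edgeR adjusted p = 0.00301). Slc51a, a subunit of the basolateral bile acid transporter, was at 3.99, 11.1, 7.07 and 11.8 CPM and 7.19, 39.5, 15.01 and 30.03 CPM, with a log2 fold change of -1.48 (SE 0.22, edgeR adjusted p = 0.00462). The list counts were small at this match: 1 of 22 cholesterol synthesis genes higher (median 0.28), 0 of 23 junction genes (median 0.23), 0 of 24 hypoxia and glycolysis genes (median 0.21) and 2 of 17 regenerative genes (median 0.35). Over all genes 0.308% were higher and 0.82% lower, with a median of -0.01. Car1 (log2 fold change 0.53, SE 0.25, edgeR adjusted p = 0.408) and Krt20 (log2 fold change 0.27, SE 0.15, edgeR adjusted p = 0.471) did not pass. The match holds fewer cells than the other comparisons, and the effect of leaving out a library on it was not tested.

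**Figure D3:**
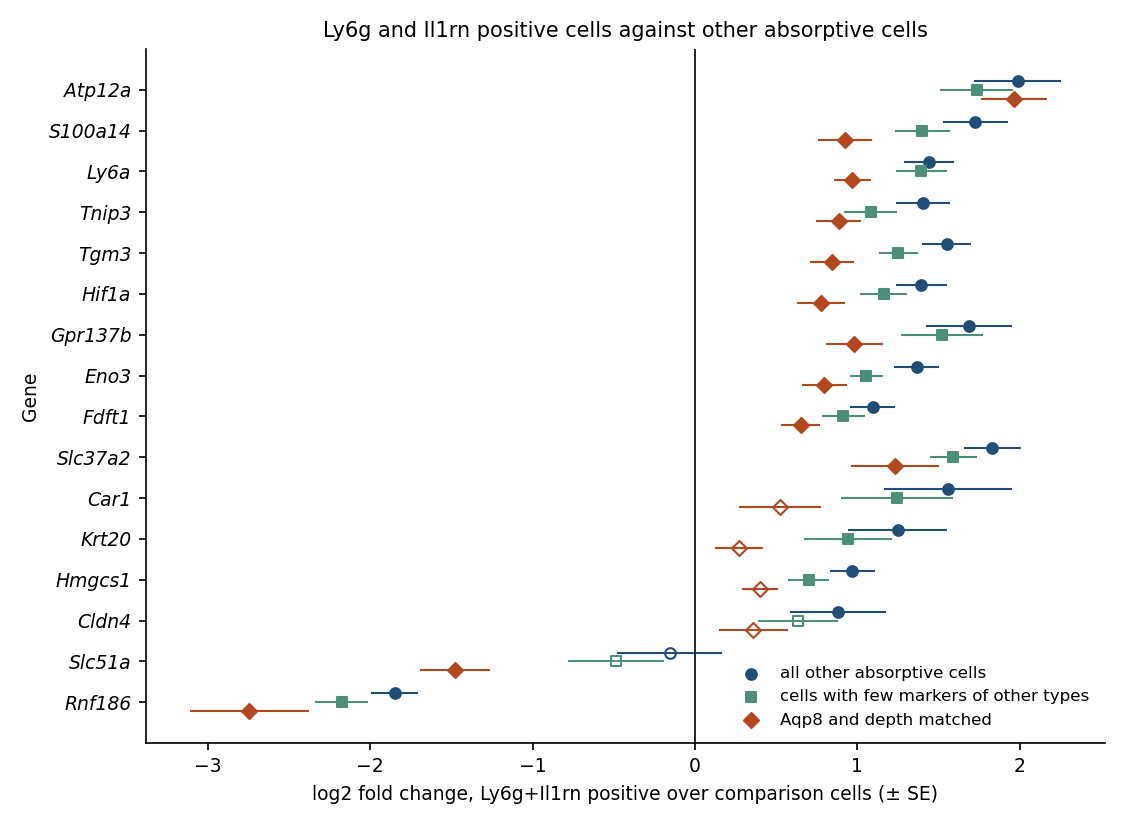
Log2 fold change (x axis) of 16 genes (y axis) in Ly6g and Il1rn positive cells over 3 sets of comparison cells, with bars of 1 SE from the edgeR fit. Filled symbols have an adjusted p under 0.05 and open symbols do not. Atp12a lies near 2 in the first and the matched comparison, while Car1, Krt20, Hmgcs1 and Cldn4 are open in the matched one.

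DSS against control was compared within the class over its summed UMIs per library, 6100142, 17401550, 9819483 and 39050651. Among the proposed markers, the antibacterial lectin Reg3b differed most, at 23.6, 20.2, 332 and 656 CPM. Both DSS libraries lay above both control libraries. Few cells carried it: 1.32%, 2.61%, 11.8% and 23.2% of the class had a Reg3b UMI, which was 5 cells in control 1. In other absorptive cells Reg3b was at 7.27, 51.9, 144 and 902 CPM. Within the class the log2 fold change of Reg3b was 4.50 (SE 0.44), given as a description because it is a proposed marker. The other proposed markers and rule genes differed less, with log2 fold changes of 0.18 for Areg, 0.20 for Anxa8, 0.78 for Ly6g and 0.56 for Il1rn. Areg was at 734, 1425, 1076 and 1440.1 CPM and Anxa8 at 76.6, 100.1, 74.7 and 131 CPM, and in both the groups overlapped. The direction of these 4 genes rested on single libraries: without DSS 2 the log2 fold change of Ly6g was -0.22, of Il1rn -0.56, of Areg -0.065 and of Anxa8 -0.29, and without control 1 Areg was at -0.28 and Anxa8 at -0.054.

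No gene of 13275 passed edgeR's quasi-likelihood test after Benjamini-Hochberg adjustment. The smallest adjusted p was 0.365, 567 genes had an unadjusted p under 0.05, and with this test 6 genes were higher without DSS 2. DESeq2 called 23 genes higher (0.173%) and 29 lower (0.218%). Over all genes, 15.1% were higher and 16.2% lower in both DSS libraries than in both control libraries. The genes given next were chosen after their values were seen, among those that DESeq2 called.

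Ly6 genes stood high in the DSS libraries. Ly6a was at 417, 427, 1181 and 1826 CPM (log2 fold change 1.82, DESeq2 adjusted p = 0.000107, edgeR adjusted p = 0.823). Ly6c1 was at 7.54, 8.56, 33.8 and 99.7 CPM (3.04, DESeq2 adjusted p = 1.96e-05, edgeR adjusted p = 0.817), and Ly6d at 1.97, 3.45, 14.1 and 72.3 CPM (3.91, DESeq2 adjusted p = 2.92e-05, edgeR adjusted p = 0.894). In each of these genes both DSS libraries exceeded both control libraries, with DSS 2 the higher. In other absorptive cells the log2 fold changes were 1.36, 1.37 and 4.10. Of the 9 tested Ly6 and uPAR family genes, 4 were without overlap and higher with DSS and 0 lower, and the median was 1.40 beside -0.0027 over all genes.

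Single antibacterial, keratin and metallothionein genes were also higher with DSS by DESeq2. The lists as a whole were mixed, the antibacterial and acute phase list with 6 of 18 genes higher and 1 lower without overlap, median 0.17, and the keratins with 4 of 9 genes higher and 1 lower without overlap, median 0.15. Reg3g, the paralog of Reg3b, was at 2.46, 10.9, 59.3 and 102 CPM (3.46, DESeq2 adjusted p = 2.9e-05, edgeR adjusted p = 0.823). The keratin gene Krt7 was at 26.7, 21.9, 79.9 and 119 CPM (2.04, DESeq2 adjusted p = 1.47e-05, edgeR adjusted p = 0.501), and the metallothionein gene Mt1 at 577, 595, 1683 and 2219.8 CPM (1.73, DESeq2 adjusted p = 3.4e-05, edgeR adjusted p = 0.823). In all of these both DSS libraries lay above both controls. Other absorptive cells had log2 fold changes of 2.30, 0.59 and 1.10. The chemokine gene Ccl20 was at 3.61, 6.32, 37.5 and 12.9 CPM (2.24, DESeq2 adjusted p = 0.0395, edgeR adjusted p = 1), and here DSS 1 was the higher of the DSS libraries.

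Among the genes lower with DSS by DESeq2, Mpst, an enzyme of sulfur metabolism, was at 241, 241, 71.7 and 70.3 CPM (-1.77, DESeq2 adjusted p = 1.57e-06, edgeR adjusted p = 0.451), and Tst, which detoxifies sulfide products, at 478, 491, 227 and 222 CPM (-1.12, DESeq2 adjusted p = 0.0242, edgeR adjusted p = 0.907). The ceramidase gene Acer1 was at 85.4, 75.2, 21.3 and 22.3 CPM (-1.89, DESeq2 adjusted p = 1.44e-06, edgeR adjusted p = 0.365). Levels within each group were close, and both DSS libraries lay below both controls. Cdx2, the intestinal identity factor, was at 183, 188, 87.8 and 88.6 CPM (-1.08, DESeq2 adjusted p = 0.0441, edgeR adjusted p = 0.823), and the Wnt target Axin2 at 11.1, 6.21, 0.917 and 0.307 CPM (-4.01, DESeq2 adjusted p = 1.16e-05, edgeR adjusted p = 0.654). In other absorptive cells Mpst had a log2 fold change of -2.28 and Axin2 of -4.31.

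**Figure D4:**
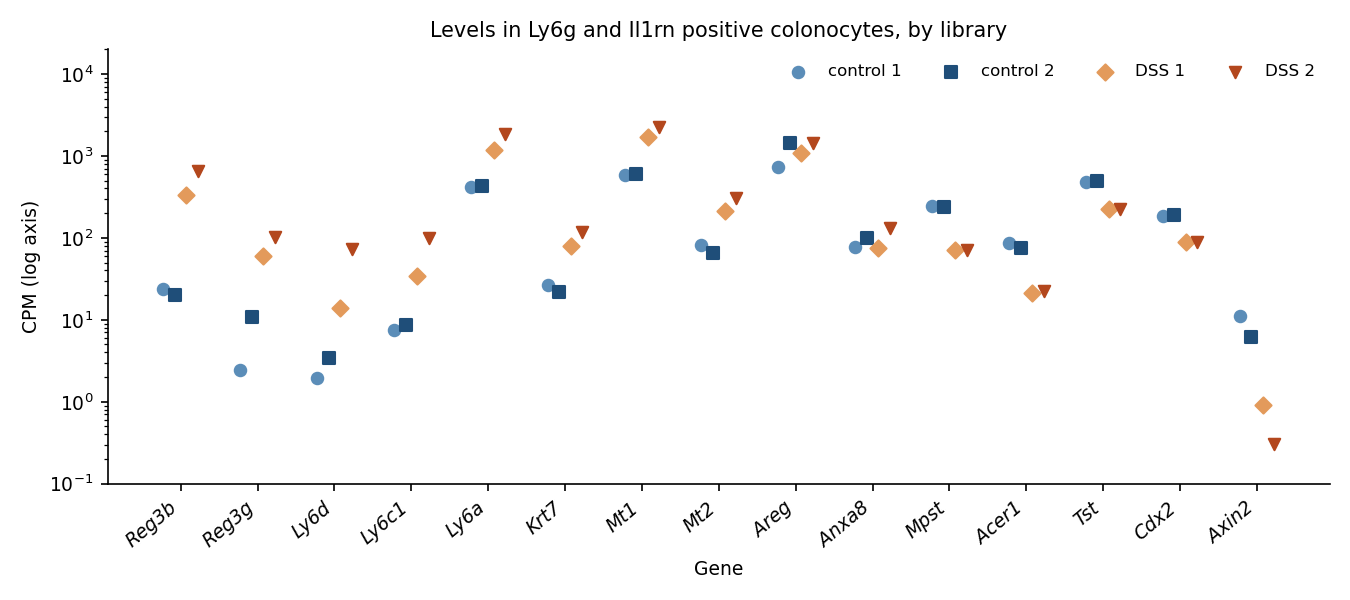
Level in CPM (y axis, log scale) of 15 genes (x axis) in Ly6g and Il1rn positive cells, with 1 symbol per library. For Reg3b, Reg3g, the Ly6 genes, Krt7, Mt1 and Mt2 both DSS libraries lie above both control libraries, for Mpst, Acer1, Tst, Cdx2 and Axin2 they lie below, and for Areg and Anxa8 the groups overlap.

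Among the gene lists, interferon-gamma and antigen presentation had the most members above the controls in both DSS libraries (16 of 27 genes higher and 0 lower without overlap, median 0.77), where 15.1% of all genes were. In other absorptive cells the list had 18 of 30 genes higher and 0 lower without overlap, median 1.29 beside -0.094 over all genes. The share of all genes without overlap was computed for the class alone, so that count has no such share beside it. In the class the higher genes of the list included the peptide transporter Tap1 at 6.72, 7.76, 16.6 and 25.1 CPM (1.51), the immunoproteasome subunit Psmb8 (1.00) and the guanosine triphosphatase Iigp1 (2.72). For B2m, Irf1 and H2-K1 the groups overlapped. None of these passed edgeR's adjusted test. The regenerative list (8 of 19 genes higher and 0 lower without overlap, median 0.60), the cholesterol synthesis list (8 of 22 genes higher and 0 lower without overlap, median 0.46) and the unfolded protein response list (8 of 17 genes higher and 2 lower without overlap, median 0.50) had medians above 0. The surface transport list (4 of 28 genes higher and 9 lower without overlap, median -0.33) and the brush border list (2 of 28 genes higher and 5 lower without overlap, median -0.41) had medians below 0, and over all genes 16.2% were lower without overlap. The type I interferon list, which the rule trims through Ifit1 and Ifit2, was near 0 (9 of 29 genes higher and 3 lower without overlap, median 0.05).

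The DSS effect in the class was then compared with that in other absorptive cells, as the difference of both log2 fold changes in 1 edgeR fit with library as a block. That difference was above 0 for 218 of 15642 genes (1.39%) and below 0 for 23 (0.147%). TMM scaling placed the median of all genes at 0.17. RLE scaling placed it at 0.01 and gave 24 (0.153%) and 6 (0.0384%) genes. Cells with few foreign markers gave 65 (0.453%) and 17 (0.118%). The fit without block gave 0 of each. Leaving out control 1, control 2, DSS 1 or DSS 2 gave 567, 126, 553 and 611 genes in both directions together, and without control 2 or DSS 2 most of them were below 0. A set of 21 genes passed under TMM, RLE and few foreign markers alike, all of them above 0. When cells were limited to at most 15% mitochondrial UMIs, 4 genes passed in all (3 above 0 and 1 below), and 2 of the 21 were among them, Clca4a and Clca4b.

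The genes described next are from these 21, and some were selected after their values were seen. Clca4a, a calcium-activated channel regulator, was at 141, 919.8, 203 and 743 CPM in the class and 158, 1171, 32.3 and 144 CPM in other absorptive cells. It was lower in the class in both control libraries and higher in both DSS libraries. The difference of the DSS effects was 2.89 (SE 0.26, edgeR adjusted p = 0.000646) on the log2 scale. Clca4b was at 2.46, 15.7, 33.2 and 63.9 CPM in the class and 1.89, 55.2, 4.75 and 6.96 CPM in other absorptive cells, with a difference of 4.56 (SE 0.48, edgeR adjusted p = 0.0014). Gcnt3, a mucin glycosyltransferase, was at 39.8, 167, 19.96 and 86.1 CPM in the class and 45.5, 295, 6.68 and 32.9 CPM in other absorptive cells, with a difference of 2.17 (SE 0.26, edgeR adjusted p = 0.00222).

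The hydrogen peroxide producing oxidase Duox2 was at 60.8, 193, 117 and 94.4 CPM in the class and 73.9, 255, 47.02 and 60.9 CPM in other absorptive cells, with a difference of 1.44 (SE 0.21, edgeR adjusted p = 0.00773). Its maturation factor Duoxa2 was at 37.4, 93.8, 82.6 and 59.2 CPM in the class and 43.9, 115, 25.8 and 32.9 CPM in other absorptive cells, with a difference of 1.64 (SE 0.20, edgeR adjusted p = 0.00222). For both, the class was lower than its comparison cells in both control libraries and higher in both DSS libraries. The necroptosis kinase Ripk3 was at 11.8, 28.7, 32.2 and 53.6 CPM in the class and 12.4, 37.5, 8.86 and 25.4 CPM in other absorptive cells, with a difference of 1.84 (SE 0.22, edgeR adjusted p = 0.00174), and showed this pattern too. The tight junction gene Cldn4 was at 27.2, 159, 66.7 and 255 CPM in the class and 26.4, 183, 15.5 and 128 CPM in other absorptive cells, with a difference of 1.74 (SE 0.23, edgeR adjusted p = 0.00407). The laminin chain Lama3 was at 22.9, 42.5, 17.01 and 33.2 CPM in the class and 21.2, 55.2, 3.98 and 7.36 CPM in other absorptive cells, with a difference of 2.46 (SE 0.28, edgeR adjusted p = 0.00174). For Lama3, the other absorptive cells of both DSS libraries held less than any other set of cells.

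Of the lists, 6 of 20 regenerative genes had a difference above 0 (among them Anxa1, Emp1, Krt7 and Lama3), as did 6 of 28 surface transport genes, 5 of 28 brush border genes and 3 of 24 junction genes, with 0 below, beside 1.39% over all genes. With RLE scaling 1 of 20 regenerative, 2 of 28 transport, 0 of 28 brush border and 1 of 24 junction genes passed, beside 0.153% over all genes. With few foreign markers they were 3 of 19, 2 of 28, 0 of 28 and 1 of 24, beside 0.453%. Krt20 differed by 1.61 (SE 0.32, edgeR adjusted p = 0.0305) and Car1 by 2.07 (SE 0.36, edgeR adjusted p = 0.0182), and both lost their call with RLE scaling and with few foreign markers. None of the 30 interferon-gamma and antigen presentation genes passed (median -0.32 beside 0.17 over all genes). Gal, a neuropeptide gene, had the largest difference (7.21, SE 0.84, edgeR adjusted p = 0.00174), but it was at 389, 0.202, 1.16 and 0.720 CPM in other absorptive cells, high in 1 control library alone, and with few foreign markers the value was -0.59. The plasma cell and enteroendocrine markers also differed between libraries in the comparison cells. Their part in the other differences was tested only through the cells with few foreign markers. The comparison cells also held a smaller share of surface colonocytes with DSS. Of the 3083, 3867, 945 and 1275 comparison cells, 1207, 2438, 112 and 286 had at least 3 Aqp8 UMIs. The fit was also run on each side of that cut. With at least 3 Aqp8 UMIs the difference was above 0 for 33 of 12276 genes and below 0 for 37. With fewer it was above 0 for 12 of 15108 genes and below 0 for 2. The difference for Gal was 0.60 and 6.20 in these fits, and values of the other named genes are not given here. How much the smaller share adds to each difference was not tested beyond this.

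**Figure D5:**
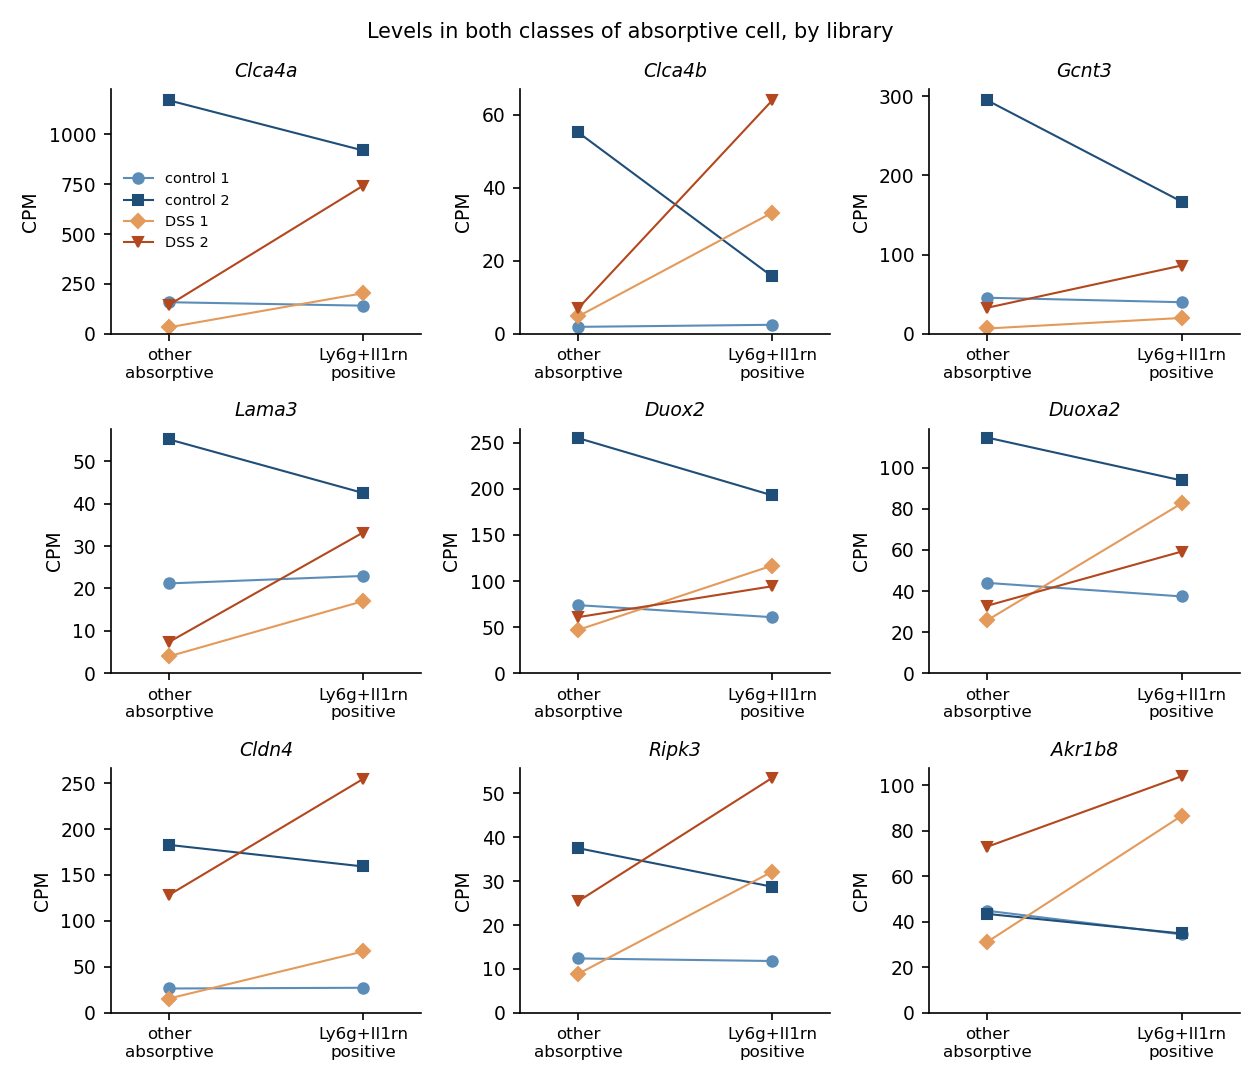
Level in CPM (y axis) of 9 genes in other absorptive cells and in Ly6g and Il1rn positive cells (x axis), with 1 line per library. The lines of both DSS libraries go up toward the positive class in all 9 genes, and those of the control libraries are flat or go down, except that Lama3, Cldn4 and Clca4b are slightly higher in the class in control 1.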

How the data were processed

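Single cells of the mid-colon from 2 control and 2 DSS libraries were measured with the 10x 3' droplet assay. The deposited values are raw UMI counts per gene and barcode, made by the authors with Cell Ranger 6.1.1 on GRCm38, per the submitters' processing notes. Its settings were not given in the sources used here, while the labels name a version 3 capture kit beside a version 2 library kit, and this could not be settled. All 55450 gene IDs and symbols matched GENCODE M21. There were 0 columns of values outside the 4 libraries.

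Cells were kept at 500 or more UMIs, 250 or more genes and at most 25% mitochondrial UMIs (Python 3.11.15, numpy 2.4.6, pandas 2.3.3, scipy 1.17.1). Doublets were marked by Scrublet (scanpy 1.11.5, at 0.8% expected for each 1000 cells) and were kept except in an alternative. The raw counts of each class were added up within each library and tested with edgeR 4.0.16 (R 4.3.3) after filterByExpr and TMM scaling, using its quasi-likelihood F test (two-sided) and Benjamini-Hochberg adjustment at 0.05 over all genes tested. Comparisons between classes had library as a block, and DSS against control had the group as the sole term. CPM values are per 1000000 UMIs of the summed cells. With 2 libraries a group, a permutation test could not go below p = 0.333 and was not used. The fitting code was tested on simulated data with known changes.

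Genes of the rule and the 5 proposed markers stayed in the fits and in the counts over all genes, and their own values are given as a description. Other genes were named by a rule: an adjusted p under 0.05, at least 20 CPM in the higher group and the same direction in each library, taking the 15 with the largest change in each direction, or 5 for the difference of DSS effects, and from each gene list up to 4 called genes with the highest level, or the 2 highest where none was called. The members and lists were chosen with earlier results of these data known, and genes named outside the rule are marked as such or serve as comparisons. Alternatives were DESeq2 1.42.0, RLE scaling, no filter, other blocks, other limits on cells and leaving out each library. Those on foreign markers, on Aqp8 with or without matched UMI totals and on thinning to 5000 UMIs were chosen after seeing the data. Results for some genes are not reported here. Promoter windows came from RefSeq on GRCm38.p6 and were searched for exact motif matches on both strands.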

Additional observations from a re-analysis of the deposited data

Results flagged for a closer look

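The DSS effect differed between the Ly6g and Il1rn positive class and other absorptive cells for 241 genes by edgeR's test of the difference itself, and this test singled out the genes that follow. On the log2 scale the difference was 7.21 for Gal, 4.56 for Clca4b, 2.89 for Clca4a, 2.46 for Lama3, 2.45 for 2010109I03Rik and 2.17 for Gcnt3. It was 2.07 for the carbonic anhydrase gene Car1, 1.84 for Ripk3, 1.74 for Cldn4, 1.64 for Duoxa2, 1.61 for Krt20 and 1.60 for Ly6c1. The smallest of the named differences were 1.45 for the aldo-keto reductase gene Akr1b8, 1.44 for Krt7 and 1.44 for Duox2. Each of these differences was above 0 over all absorptive cells. The level with DSS relative to control was thus higher inside the class than outside it. For Gcnt3, Lama3 and Clca4a the groups overlapped within the class, and the comparison cells were lower in both DSS libraries than in both control libraries. The comparison cells also held a smaller share of surface colonocytes with DSS. Among cells with at least 3 Aqp8 UMIs the difference was above 0 for 33 genes and below 0 for 37. How much the smaller share adds to each difference was not tested beyond the fits on either side of that cut. For Gal the difference was -0.59 with few foreign markers, and 1 control library held 389 CPM of Gal in its comparison cells. Car1, Krt20, Krt7 and Ly6c1 lost their call with RLE scaling. Their number moved with the processing, as given under the settings that follow.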

How the results depend on the processing

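Counts of genes moved more than directions did. Against other absorptive cells, 6382 genes passed, 3116 with few foreign markers, 9 with no replicate block and 3551 to 6071 when a library was left out. Against Aqp8 surface colonocytes, 3318 genes passed, 1953 at no more than 15% mitochondrial UMIs, 1387 with at least 3 Aqp8 UMIs on both sides, 99 with UMI totals matched as well, 8 with no replicate block and 1561 to 3260 when a library was left out. For DSS against control in the class, edgeR called 0 genes, DESeq2 52, edgeR without the filter on low counts 190 and 0 to 6 when a library was left out. In other absorptive cells edgeR called 0 genes, DESeq2 352, edgeR without that filter 608 and 0 to 391 when a library was left out. The difference of the DSS effects held for 241 genes, for 153 with DESeq2, 30 with RLE scaling, 1169 without the filter on low counts, 73 without predicted doublets, 153 with at least 5 Ly6g and Il1rn UMIs and 4 at no more than 15% mitochondrial UMIs. It held for 82 genes with few foreign markers, 70 among cells with at least 3 Aqp8 UMIs, 14 among cells with fewer, 0 with no replicate block and 126 to 611 when a library was left out. The mean share of the class was 29.8 points higher with DSS, 9.63 after thinning to 2000 UMIs and 13.7 to 45.9 when a library was left out. Leaving out a library leaves a group with 1 library, whose spread is then assumed to be like that of the others. The cause of these shifts was not tested.

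Libraries share the numbers 1 and 2 across groups. Deviations of same-numbered libraries correlated at 0.345 across genes in the class and 0.0968 in other absorptive cells. With 2 pairs this does not establish pairing, so the replicate block is an alternative: with it 79 genes passed in the class (42 higher and 37 lower with DSS) and 5 in other absorptive cells. Of the DESeq2 calls, 19 of 23 higher and 24 of 29 lower genes passed with the block too.

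Some single genes changed sign (log2 values). Against other absorptive cells, Ly6d went from -1.71 to 2.26 with few foreign markers, and Slc51a, at -0.15, ranged from -0.54 to 0.43 when a library was left out. Against Aqp8 surface colonocytes, Atp12a (0.01) was at -0.018 with DESeq2, -0.031 without predicted doublets and -0.24 to 0.28 without a library. Under the same omission Tnip3 (0.12) ranged from -0.046 to 0.34, Gpr137b (0.19) from -0.080 to 0.62, Tgm3 (-0.11) from -0.42 to 0.13, Eno3 (-0.11) from -0.41 to 0.12 and Rnf186 (-0.08) from -0.43 to 0.29, the last at 0.13 without predicted doublets. Tgm3 was at 0.0077 at no more than 15% mitochondrial UMIs and Eno3 at 0.014 with at least 5 Ly6g and Il1rn UMIs. With the Aqp8 cut on both sides, and then with matched UMI totals, Tgm3 was at 0.54 and 0.84, Eno3 at 0.53 and 0.80 and Krt20 (-0.36) at 0.21 and 0.27. Matched totals also turned Sult1c2 (1.55) to -0.18 and Cldn4 (-0.55) to 0.36. For DSS against control in the class, leaving out a library gave -0.28 to 0.86 for Areg (0.18), -0.29 to 0.56 for Anxa8 (0.20), -0.22 to 1.36 for Ly6g (0.78) and -0.56 to 1.18 for Il1rn (0.56). Anxa8 was at -0.11 among cells with at least 3 Aqp8 UMIs. Reg3g in other absorptive cells (2.30) was at -0.36 with that cut, and the difference of the DSS effects for Gal (7.21) was at -0.59 with few foreign markers. Of the other alternatives for named genes, 1393 kept direction and side of the threshold, 140 kept direction and lost it, and 87 kept direction and gained it.

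Depth limits the rare transcripts most: the class summed to between 6100142 and 39050651 UMIs per library, and 1 UMI weighs most in control 1.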

Other observations

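Genes of acute stress, cell death and wound response were mixed between the class and other absorptive cells (edgeR, library as a block, beside 22.9% higher and 21.8% lower over all genes). With few foreign markers the shares over all genes were 10.6% higher and 13% lower. Of the AP-1 and immediate early list, 6 of 22 tested genes were higher and 2 lower, and with few foreign markers 5 and 2. The AP-1 subunit Fosl1 reached 15.6, 48.1, 20.5 and 74.2 CPM in the class and 7.30, 34.8, 7.52 and 39.98 CPM in other absorptive cells, higher in each library (log2 fold change 1.11, edgeR adjusted p = 0.000724). Maff, a small Maf factor, had a log2 fold change of 0.89, and Myc, a transcription factor of proliferating crypt cells, one of -1.43. Of the p53 and cell death list, 8 of 22 genes were higher and 3 lower, and with few foreign markers 7 and 1. The cell cycle inhibitor Cdkn1a was at 846, 1389, 527 and 716 CPM against 468, 1065, 225 and 292 CPM (log2 fold change 1.09, edgeR adjusted p = 0.00316), higher in the class in each library.

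Of the YAP target and wound matrix list, 6 of 19 genes were higher and 9 lower, and with few foreign markers 4 of 17 and 1. The higher genes included the integrin subunits Itgb6 (1.29) and Itgb4 (0.86), and the lower ones matrix genes such as Thbs1 (-0.51). Of the antibacterial and acute phase list without Reg3b, 6 of 19 genes were higher and 4 lower, and with few foreign markers 4 of 18 and 1. Lypd8, which keeps bacteria off the surface, was at 1.13 and Saa1, a serum amyloid, at 1.06, while the oxidase Nox1 of the lower crypt was at -1.88. Of the unfolded protein response list, 0 of 17 genes were higher and 3 lower, and with few foreign markers 1 and 2. Against surface cells matched for Aqp8 and UMI totals, no gene of these 5 lists was higher in the class. Lower were 0 of 20 AP-1, 1 of 19 cell death, 1 of 17 wound matrix, 1 of 14 antibacterial and 0 of 16 unfolded protein response genes. Over all genes of that match 0.308% were higher and 0.82% lower.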
